A study of Mus musculus with 9 samples.

Results

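Immediate early genes are switched on within minutes of a signal, by transcription factors that are already in the cell, and their mRNAs are short-lived. Growth factors and stress reach them through MAP kinases, the serum response factor SRF and the CREB family. Many encode transcription factors: FOS and JUN proteins pair through leucine zippers to form AP-1, and EGR proteins bind GC-rich sites through zinc fingers. In blood cells AP-1 and EGR factors are known for their part in monocyte and macrophage differentiation.

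The expression of 10 of these genes was examined: Fos, Fosb, Jun and Junb, which encode AP-1 subunits, Egr1, Egr2 and Egr3, the stress-induced factor Atf3, Ier2, and Dusp1, a phosphatase that inactivates MAP kinases. Each was represented by the probe set whose only gene symbol in the platform annotation was that gene. There was 1 such probe set for each of the 10 genes, of 22180 genes with a symbol and 41345 probe sets in all. All 10 were tested, and none was removed by a filter on low values.

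The RNA came from MLL-AF9-OSKM cells, which are mouse acute myeloid leukemia cells made by retroviral expression of the MLL-AF9 fusion gene. They also carry the reprogramming factors OSKM (Oct4, Sox2, Klf4 and Myc) under a promoter that doxycycline (Dox) switches on. The cells grew in C57BL/6J recipient mice that had been sublethally irradiated, and were sorted from the spleen by flow cytometry. The 3 groups were 3 samples of leukemia cells from mice without Dox (control), 3 samples after 48 h and 3 samples after 72 h of Dox in the drinking water, each on 1 Mouse Gene 2.0 ST array. All 3 groups carried MLL-AF9 and the inducible cassette, and the control mice received no Dox, so that effects of the drug and of OSKM cannot be told apart. The ages of the mice are not given in the labels, which call the replicates biological without saying whether each came from its own mouse. The p-values therefore measure the spread between these samples, which may be partly technical.

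The values are log2 signals as the authors deposited them. A difference of 1 between groups is a change of 2-fold, and values after ± are standard deviations over the 3 arrays of a group unless marked SE. An array is called by its group and number, for example Dox 72 h 1. Of the 10 leukemia and myeloid genes set out for a check of the label, Hoxa9, Meis1 and Itgam had log2 signals from 9.33 to 11.05 over the 9 arrays. At 48 h, 2 of the 10 were called higher (Csf1r and Ptprc) and 2 lower (Kit and Mpo), and at 72 h 1 was called higher (Csf1r) and 0 lower. The summed linear signal of the list was 8619 to 9169 in control, 8074 to 9029 at 48 h and 7488 to 7589 at 72 h, where the arrays did not overlap control. Several lists of cell type markers peaked on Dox 72 h 3. Of the 9 arrays it was the highest for 4 of 4 platelet genes (summed linear signal 704, with 183 and 198 on Dox 72 h 1 and Dox 72 h 2), 3 of 3 erythroid genes (206, with 74.9 and 76.0), 6 of 7 B cell genes (647, with 426 and 443) and 4 of 6 T cell genes (283, with 125 and 106). It was also the highest for 5 of 7 dendritic cell genes and 6 of 10 red pulp macrophage genes. For monocyte and macrophage genes it was the highest in 4 of 9, and for plasma cell genes in 3 of 6. The same held for 2 of 6 NK cell genes, 2 of 8 endothelial and stromal genes and 1 of 10 neutrophil genes. Control 3 stood apart in part of these lists, with 333 for platelet genes (137 and 147 on the other control arrays), 169 for erythroid genes (53.9 and 59.1) and 1351 for red pulp macrophage genes (623 and 830). The part of these cells in the values below was not tested. Without Dox 72 h 3 or without control 3, none of the 10 genes was called at 72 h, as with all arrays, and the median of their log2 fold changes there was 0.046 and 0.11. In bulk samples, less RNA per cell and fewer cells of a type cannot be told apart.

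After 48 h of Dox, the mean of each of the 10 genes lay above that of control, and Atf3 was the only one to pass the test. The log2 fold changes at 48 h ran from 0.04 (Egr2) to 0.92 (Jun), with a median of 0.54, against a median of -0.02 over all probe sets. The median of the 10 genes was between 0.30 and 0.66 with an array left out, lowest without Dox 48 h 1. By limma, with Benjamini-Hochberg adjustment over all probe sets and a threshold of 0.05, 1 of 10 was called higher and 0 were called lower; 3 had an unadjusted p under 0.05 (Junb, Atf3 and Ier2). Of all 41345 probe sets, 4217 had an unadjusted p under 0.05, and 1.12% were called higher and 0.481% lower. In 5 of the 10 genes (Fos, Jun, Junb, Atf3 and Ier2) every 48 h array lay above every control array, which held for 7.37% of all probe sets. Of the 10 genes, 9 were brighter than the median probe set, and among the 12377 genes at or above the median signal the share was 15%.

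After 72 h of Dox the means of the 10 genes lay on both sides of control. Their log2 fold changes against control ran from -0.43 (Dusp1) to 0.55 (Fos), with a median of 0.12; 7 were above 0 and 3 below, and all probe sets had a median of -0.01. The median of the 10 genes was between 0.032 and 0.18 with an array left out, and lower by over 1.5 times without Dox 72 h 2 (0.032), Dox 72 h 3 (0.046) or control 2 (0.075). None was called in either direction, and 2 had an unadjusted p under 0.05 (Atf3 and Egr3). Of all 41345 probe sets, 6936 had an unadjusted p under 0.05 at 72 h, and 1.16% were called higher and 1.33% lower. Only Atf3 was higher on every 72 h array than on every control array, as were 9.1% of all probe sets.

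Between the 2 times, 8 of the 10 genes had a lower mean at 72 h than at 48 h, with a median log2 fold change of -0.25 against 0.0018 over all probe sets. It was -0.59 without Dox 72 h 2, -0.38 without Dox 48 h 3 and -0.12 without Dox 72 h 1. None was called, and 2 had an unadjusted p under 0.05 (Ier2 and Dusp1). Of all 41345 probe sets, 5072 had an unadjusted p under 0.05 between the times. At 72 h, 0.00726% were called higher and 0.208% lower than at 48 h. Junb and Dusp1 were lower on every 72 h array than on every 48 h array, as were 8.15% of all probe sets. The comparisons with control share the 3 control arrays, and each shares a group with the comparison of the 2 times, so that the 3 sets of values are not independent.

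**Figure D1:**
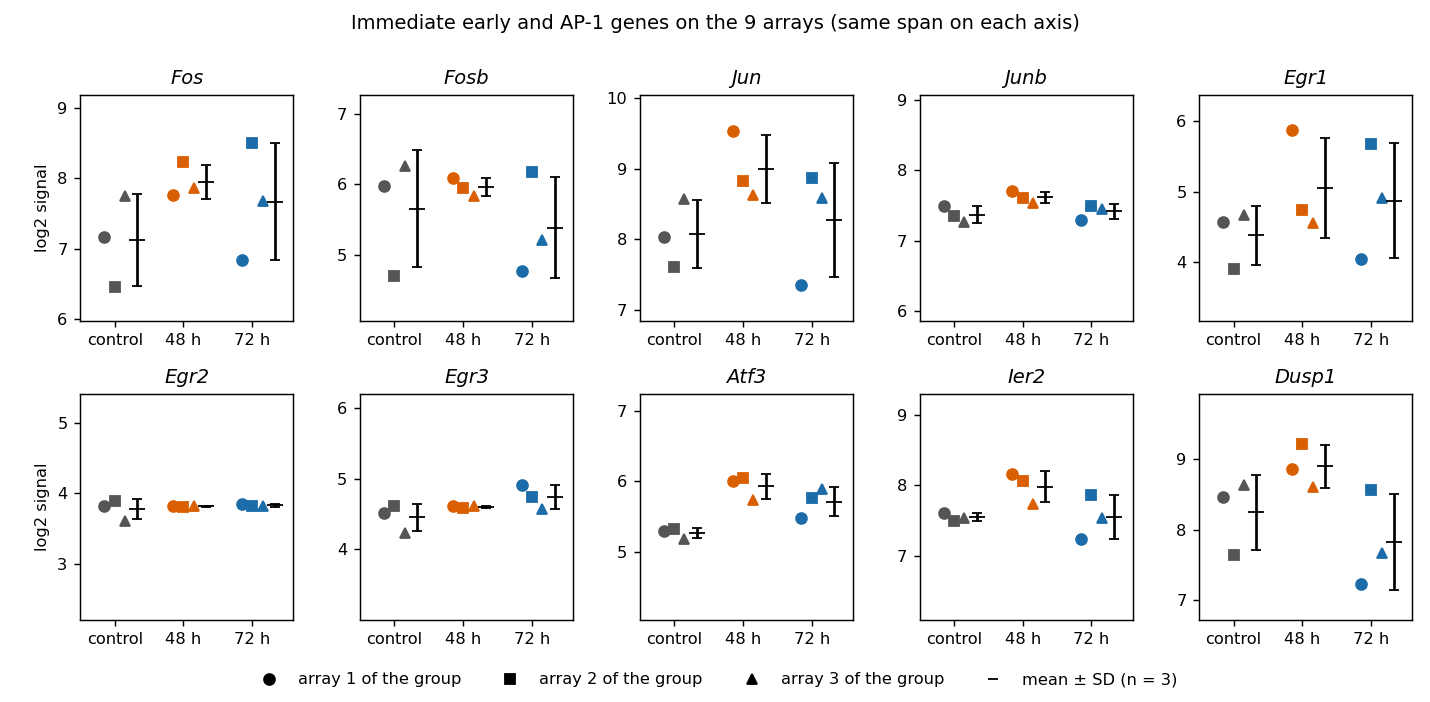
Log2 signal (vertical axis, the same span in each panel) of the 10 genes on the 9 arrays, in control, Dox 48 h and Dox 72 h samples. Symbols are arrays and bars are mean ± SD (n = 3). Fos, Fosb, Jun, Egr1 and Dusp1 spread widely within the control and 72 h groups, and Atf3 lay between 5.73 and 6.05 at 48 h, above the control arrays at 5.18 to 5.32.

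**Figure D2:**
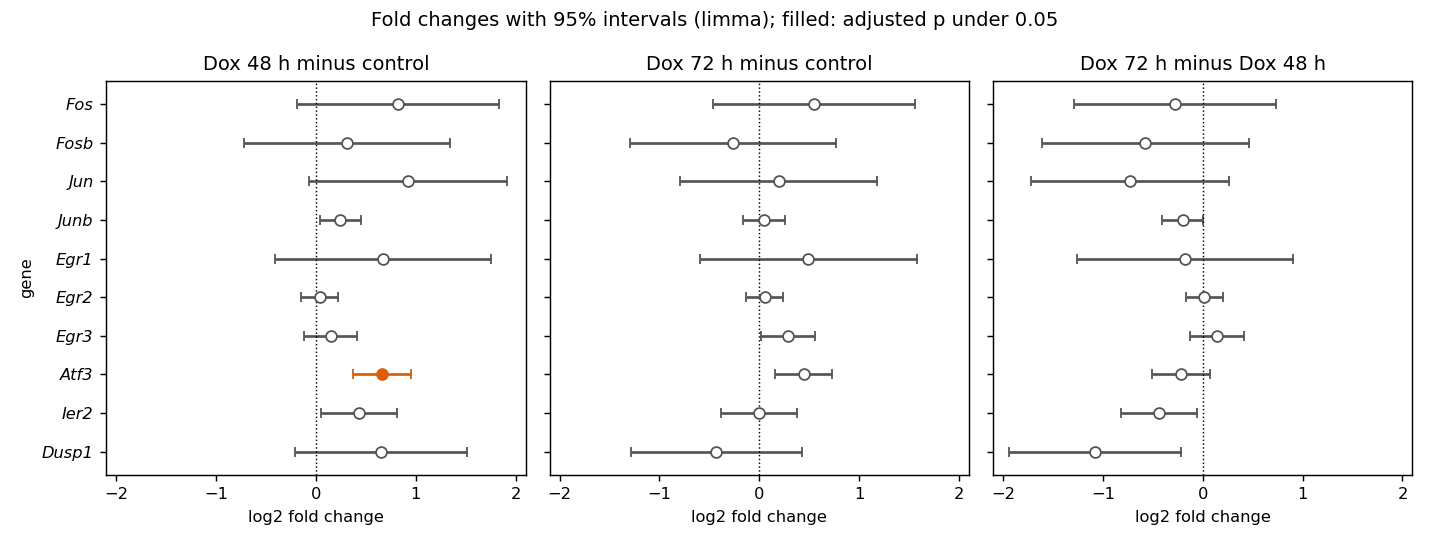
Log2 fold change with its 95% interval from limma (horizontal axis) for each of the 10 genes in the 3 comparisons. The filled point is the only one with an adjusted p under the threshold, Atf3 at 48 h (0.66). For Fos, Fosb, Jun and Egr1 every interval includes 0.

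Upstream sequence is shown for the 4 genes whose values the account turns on: Fos and Dusp1, which varied together between arrays, Jun, with the largest mean change at 48 h, and Atf3, the gene called there. The promoters are from RefSeq (build GRCm38.p6), and 7 of the 10 genes had an entry (11 start sites, of which Egr2 had 5); Egr1, Egr3 and Ier2 did not. The 250 bases before the start site were searched on both strands for the CArG box of SRF (by name), the cAMP response element CRE (TGACGTCA), its core (TGACG, which also lies in the full CRE), the AP-1 site (TGANTCA), the EGR site (GCGTGGGCG), the KLF or Sp site (GGGCGG) and the TATA box (TATAAA). Sequences run 5′ to 3′ in the direction of the gene, and capitals mark matches to any of these motifs other than GGGCGG.
Fos, chr12:85473640-85473889, plus strand: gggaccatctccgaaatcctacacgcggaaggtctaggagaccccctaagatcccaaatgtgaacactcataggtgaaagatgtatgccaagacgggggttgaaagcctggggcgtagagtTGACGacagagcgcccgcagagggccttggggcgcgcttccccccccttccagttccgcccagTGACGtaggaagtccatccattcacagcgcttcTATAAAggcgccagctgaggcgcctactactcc
Dusp1, chr17:26508473-26508722, minus strand: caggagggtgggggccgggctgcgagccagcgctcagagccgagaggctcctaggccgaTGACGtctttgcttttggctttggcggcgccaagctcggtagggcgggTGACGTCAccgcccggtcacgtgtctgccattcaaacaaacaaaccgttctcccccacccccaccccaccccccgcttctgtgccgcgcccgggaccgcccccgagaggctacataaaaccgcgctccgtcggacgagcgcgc
Jun, chr4:95052223-95052472, minus strand: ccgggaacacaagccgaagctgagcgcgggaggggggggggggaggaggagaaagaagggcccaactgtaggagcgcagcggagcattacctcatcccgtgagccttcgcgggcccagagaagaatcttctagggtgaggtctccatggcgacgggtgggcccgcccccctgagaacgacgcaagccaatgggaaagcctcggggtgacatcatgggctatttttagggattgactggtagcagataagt
Atf3, chr1:191183334-191183583, minus strand: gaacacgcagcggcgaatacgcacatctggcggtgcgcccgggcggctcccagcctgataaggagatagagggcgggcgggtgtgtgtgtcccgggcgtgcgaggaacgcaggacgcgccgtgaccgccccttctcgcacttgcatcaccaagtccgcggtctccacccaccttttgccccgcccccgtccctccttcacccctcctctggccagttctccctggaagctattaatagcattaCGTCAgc

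The Fos promoter held the CRE core at 129 and at 66 bases before the start, and a TATA box at 33. Dusp1 held a full CRE at 143 and a further core at 191 bases before the start. Jun held none of the capitalised motifs, and Atf3 held a CRE core on the opposite strand, 7 to 3 bases before the start. Only exact matches were marked, so that variants such as the stretch tgacatca before Jun, 1 letter from the full CRE, were not counted. The core was found in 8 of the 11 promoters of these genes, against 17.8% of 32851 mouse promoters of the same length, and the full CRE in 1 (1.55%). The CArG box was found in 4, all of them starts of Egr2 (1.47%), the TATA box in 1 (12.4%) and GGGCGG in 7 (32.7%). The AP-1 site (6.75%) and the EGR site (0.536%) were found in none of the 11. Sequence further upstream was not searched, nor were the genes without an entry. A motif not found here, such as the CArG box before Fos, may therefore lie outside the window, and its absence from the gene was not tested. The 5 Egr2 windows overlap in part and are not independent, and a match is a description of letters only.

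Fos encodes the founding partner of JUN in AP-1. Its log2 signals were 7.16, 6.45 and 7.75 in control, 7.75, 8.23 and 7.86 at 48 h and 6.84, 8.49 and 7.67 at 72 h. All 48 h arrays lay above the control arrays, although the lowest exceeded the highest control array by only 0.0047, and the 72 h arrays overlapped both groups. The log2 fold change was 0.82 ± 0.44 (SE, adjusted p = 0.617) at 48 h and 0.55 ± 0.44 (adjusted p = 0.585) at 72 h. The highest and the lowest 72 h arrays differed by more than either mean change, with Dox 72 h 2 at 8.49 and Dox 72 h 1 at 6.84.

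Fosb, a second FOS protein that pairs with JUN, measured 5.98, 4.70 and 6.26 in control, 6.08, 5.95 and 5.84 at 48 h and 4.77, 6.18 and 5.20 at 72 h. The groups overlapped in every comparison. The 48 h arrays were close together (5.96 ± 0.123), whereas control spanned 5.65 ± 0.83 and 72 h 5.38 ± 0.72. The log2 fold changes of 0.31 at 48 h (adjusted p = 0.906) and of -0.26 at 72 h (adjusted p = 0.818) were within this spread, and both changed sign when a single array was left out.

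Jun had the largest mean change of the 10 genes at 48 h. Its log2 signals were 8.04, 7.61 and 8.57 in control, 9.54, 8.83 and 8.63 at 48 h and 7.35, 8.87 and 8.59 at 72 h. The 48 h arrays lay above all control arrays and the 72 h arrays overlapped control, with Dox 72 h 1 below every control array. The log2 fold change was 0.92 ± 0.43 at 48 h (SE, 1.9-fold, adjusted p = 0.536), with a 95% interval from -0.06 to 1.91. At 72 h it was 0.20 ± 0.43 (adjusted p = 0.864).

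Junb, an AP-1 subunit that restrains growth of myeloid progenitors in mice, varied far less between arrays than Fos, Fosb and Jun. It measured 7.49, 7.35 and 7.26 in control, 7.70, 7.60 and 7.54 at 48 h and 7.29, 7.49 and 7.45 at 72 h. All 48 h arrays were higher than all control arrays and all 72 h arrays. The differences were small: 0.25 ± 0.09 at 48 h against control (SE, adjusted p = 0.368), 0.05 at 72 h against control (adjusted p = 0.845) and -0.20 ± 0.09 at 72 h against 48 h (adjusted p = 0.422).

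The 3 EGR genes were at low signal. Egr1, a target of SRF, measured 4.58, 3.91 and 4.67 in control, 5.87, 4.74 and 4.56 at 48 h and 4.05, 5.68 and 4.91 at 72 h. Dox 48 h 1 and Dox 72 h 2 were its high arrays, and the groups overlapped. The log2 fold changes of 0.67 ± 0.47 at 48 h (SE, adjusted p = 0.742) and 0.49 ± 0.47 at 72 h (adjusted p = 0.653) had the widest intervals of the 10 genes. Egr2, a factor of macrophage and Schwann cell differentiation, ranked at the 49.9th percentile of the probe sets. Its signal ran from 3.61 to 3.90, and its means were 3.77, 3.81 and 3.83 in control, at 48 h and at 72 h, so that no difference was measurable at this signal. Egr3 measured 4.52, 4.61 and 4.24 in control, 4.61, 4.59 and 4.61 at 48 h and 4.91, 4.74 and 4.58 at 72 h. The groups overlapped, and its log2 fold change was 0.15 (adjusted p = 0.779) at 48 h and 0.29 ± 0.12 (SE, adjusted p = 0.267) at 72 h.

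Atf3, a leucine zipper factor of the ATF/CREB family that is induced by stress, was the gene called. Its log2 signals were 5.29, 5.32 and 5.18 in control, 6.01, 6.05 and 5.73 at 48 h and 5.48, 5.77 and 5.88 at 72 h. Every Dox array at either time lay above every control array. Atf3 rose at 48 h by 0.66 ± 0.12 (SE, 1.58-fold, adjusted p = 0.045), and at 72 h its difference from control was 0.45 ± 0.12 (1.36-fold, adjusted p = 0.118). The 72 h and 48 h arrays overlapped, with a difference of -0.22 ± 0.12 (adjusted p = 0.523).

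The call of Atf3 at 48 h was close to the threshold. With 1 array left out it held only without Dox 72 h 1 or Dox 72 h 3 (adjusted p = 0.034 and 0.041). It ended without control 1 (0.14), control 2 (0.13), control 3 (0.15), Dox 48 h 1 (0.15), Dox 48 h 2 (0.16), Dox 48 h 3 (0.052) or Dox 72 h 2 (0.082), while the log2 fold change stayed between 0.60 and 0.76. It ended too after median centring of the arrays, in a fit of the 6 arrays of both groups alone and with a trended, robust variance, where the adjusted p was 0.058, 0.061 and 0.053.

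Ier2, which encodes a nuclear protein, measured 7.61, 7.49 and 7.54 in control, 8.15, 8.06 and 7.73 at 48 h and 7.24, 7.86 and 7.53 at 72 h. All 48 h arrays exceeded all control arrays, whereas the 72 h arrays lay on both sides of control. Its difference from control was 0.43 ± 0.17 at 48 h (SE, adjusted p = 0.398) and -0.0042 ± 0.17 at 72 h (adjusted p = 0.994). The small difference at 72 h turned positive after median centring (0.086), so it has no settled sign.

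Dusp1, which removes phosphate from the MAP kinases that induce the other genes, had the largest difference between the 2 times. It measured 8.47, 7.64 and 8.63 in control, 8.87, 9.22 and 8.61 at 48 h and 7.22, 8.56 and 7.67 at 72 h. Every 72 h array was lower than every 48 h array, by a margin of 0.046 between the closest pair, and both Dox groups overlapped control. Dusp1 at 72 h differed from 48 h by -1.08 ± 0.37 (SE, 0.473-fold, unadjusted p = 0.0198, adjusted p = 0.314). Against control the differences were 0.65 ± 0.37 at 48 h (adjusted p = 0.649) and, after 72 h, -0.43 ± 0.37 (adjusted p = 0.616).

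In 5 of the 10 genes the spread within groups was large. The within-group standard deviations of Egr1 (0.67), Fosb (0.64), Fos (0.62), Jun (0.61) and Dusp1 (0.53) ranked from the 95.8th to the 98.2nd percentile over all probe sets. Those of Ier2 (0.22), Atf3 (0.16) and Egr3 (0.15) lay at the 74.9th, 58th and 52.9th percentile, and those of Junb (0.10) and Egr2 (0.09) at the 29.3rd and 18.8th.

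The arrays that were low or high were largely the same for these genes. Dox 72 h 1 was the lowest 72 h array for 8 of the 10 genes and Dox 72 h 2 the highest for 7, where 34.4% and 29.1% of all probe sets had their lowest or highest value on that array. Control 2 was the lowest control array for 6 (31.4% of all probe sets). At 48 h, Dox 48 h 1 was the highest for 7 (38%) and Dox 48 h 3 the lowest for 7 (30.2%). The former count includes Egr2 and Egr3, whose values were the same on Dox 48 h 1 and Dox 48 h 3. Ties were counted for the first array, also in the shares of all probe sets. The summed linear signal of the 10 genes was 1300, 946 and 1501 in control, 2149, 2002 and 1587 at 48 h and 867, 1837 and 1318 at 72 h. The 48 h arrays thus lay above all control arrays in this sum, and the 72 h arrays spanned a wider range than control on both sides.

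As a description over the 9 arrays, which share the hybridisation and normalization of all genes, the deviations from the group means correlated most between Fos and Dusp1 (r = 0.95), Jun and Egr1 (0.93), Fosb and Dusp1 (0.93) and Fos and Fosb (0.91). Of the 45 pairs, those with Egr2 included, 7 had an r above 0.8 and 13 an r below 0. Egr2 with Egr3 (0.82) was among the 7. Each of the 13 held Egr2 or Egr3, and every pair among the remaining genes had an r above 0. The lowest were Jun with Egr3 (-0.72) and Fos with Egr3 (-0.70). The correlation over the 9 arrays with the mean of the remaining genes was highest for Ier2 (0.91), Junb (0.88) and Jun (0.83), and was -0.06 for Egr3. Egr2 had the same value on 5 of the 9 arrays, so that no correlation could be read for it.

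**Figure D3:**
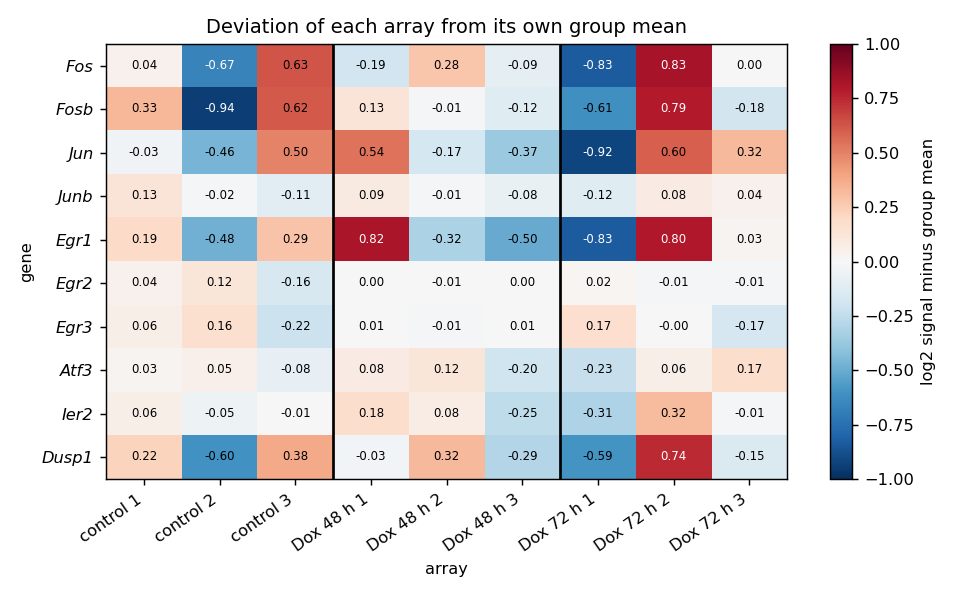
Difference between each array's log2 signal and the mean of its own group, for each gene (rows) and array (columns, with group borders as black lines). Fos, Fosb, Jun, Egr1 and Dusp1 were low on control 2 (-0.94 to -0.46) and Dox 72 h 1 (-0.92 to -0.59) and high on Dox 72 h 2 (0.60 to 0.83).

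Markers of monocytes, macrophages and neutrophils were set beside this pattern. The leukemia cells are themselves myeloid, and Csf1r counts both in the check of the label and in this monocyte list. The array medians ran from 3.71 to 3.87, and Dox 72 h 1 and Dox 72 h 2 had 3.81 and 3.76. The summed linear signal of 9 monocyte and macrophage genes was 8925 and 9934 on Dox 72 h 1 and Dox 72 h 2, and that of 10 neutrophil genes 3266 and 4182, both lower on the array where the 10 genes were low. In the other groups this order did not hold for neutrophil genes, and for monocyte genes it held at 48 h but not in control. Control 2, where the 10 genes were low, had the highest neutrophil sum of the controls (6206, with 5040 and 5682 on control 1 and control 3) and the middle monocyte sum (5786, with 5114 and 6627). Dox 48 h 1, where they were high, had the lowest neutrophil sum at 48 h (3662, with 4352 and 4041) and the highest monocyte sum (9458, with 8718 and 8618). For monocyte genes the sums were 5114 to 6627 in control, 8618 to 9458 at 48 h and 8925 to 9934 at 72 h, with 4 of 9 called higher at 48 h and 4 of 9 at 72 h. For neutrophil genes the sums were 5040 to 6206 in control, 3662 to 4352 at 48 h and 3266 to 4182 at 72 h, with 1 of 10 called higher at 48 h and 1 of 10 called lower at 72 h. The part of these cell types in the values of the 10 genes was not tested.

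The genes most like the 10 were found by the Pearson correlation over the 9 arrays with their mean, after each was centred and scaled, among 12368 other genes at or above the median signal. They were Gnmt, a glycine methyltransferase (r = 0.94), Snd1, a nuclease of RNA processing complexes (0.91), Btg1, an antiproliferative gene (0.90), the microRNA gene Mir1938 (0.89) and Gphn, which encodes gephyrin (0.87). Their log2 fold changes at 48 h were 0.35, 0.11, 0.21, 0.75 and 0.39, and none was called (adjusted p from 0.254 to 0.622). These correlations were the highest of many, over 9 points that share their groups, and are given as a description.

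The pathway lists held 100 measured genes (108 listed), of which 4 were the reprogramming factors. Of the 100, 7 were called higher and 1 lower at 48 h, and 4 higher and 3 lower at 72 h. The genes called higher include Klf4, a factor of the inducible cassette, at both times. Of all probe sets, 1.12% were called higher and 0.481% lower at 48 h, and 1.16% and 1.33% at 72 h. The largest group, 25 other immediate early genes, had 4 called higher and 0 lower at 48 h, with a median log2 fold change of 0.12, and 1 called higher and 0 lower at 72 h, with a median of -0.08. Nr4a1, an orphan nuclear receptor induced by many signals in myeloid cells, rose most among them. It measured 7.18, 7.00 and 7.06 in control, 8.73, 8.89 and 8.86 at 48 h and 7.31, 7.36 and 7.20 at 72 h. The lowest 48 h array stood 1.37 log2 units above all arrays of the other groups, and the arrays of each group lay close together. The log2 fold change was 1.75 ± 0.08 at 48 h (SE, 3.36-fold, adjusted p = 4.33e-05) and 0.21 ± 0.08 at 72 h (adjusted p = 0.242), and the difference of 72 h from 48 h was -1.54 ± 0.08 (adjusted p = 0.000555). Its relatives Nr4a2 and Nr4a3 differed from control by 0.04 and -0.11 at 48 h (adjusted p = 0.953 and 0.638).

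Klf10, a zinc finger repressor induced by TGF-beta, had its highest values at 48 h too, with means of 7.36 ± 0.07 in control, 8.03 ± 0.03 at 48 h and 7.31 ± 0.15 at 72 h. It rose at 48 h by 0.68 ± 0.09 (SE, adjusted p = 0.0086) and differed between 72 h and 48 h by -0.72 (adjusted p = 0.0264), a call that ended whichever array was left out (adjusted p from 0.051 to 0.12). Zfp36l1, which promotes decay of mRNAs with AU-rich elements, rose at 48 h by 1.24 ± 0.16 (adjusted p = 0.00999), with 7.08, 7.12 and 6.98 at 48 h against 5.77, 5.62 and 6.08 in control. At 72 h its mean differed from control by 0.16 (adjusted p = 0.682), and its call at 48 h ended without control 1 (0.051) or Dox 48 h 2 (0.054).

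Btg2, an antiproliferative gene, rose by 1.58 ± 0.30 at 48 h (SE, adjusted p = 0.0462), with an adjusted p of up to 0.17 when an array was left out. Its call held without Dox 72 h 1 or Dox 72 h 3 (0.023 and 0.038) and ended without control 1, 2 or 3 (0.17, 0.17 and 0.053), Dox 48 h 1, 2 or 3 (0.15, 0.12 and 0.13) or Dox 72 h 2 (0.084). Ier5, a stress-induced relative of Ier2, measured 6.41, 6.23 and 6.54 at 72 h, against 5.77, 5.35 and 5.74 in control. It rose at 72 h by 0.78 ± 0.14 (adjusted p = 0.0306), a call that held with 1 array left out only without Dox 48 h 1 (0.039) and otherwise reached up to 0.091. At 48 h the difference was 0.70 (adjusted p = 0.0525).

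**Figure D4:**
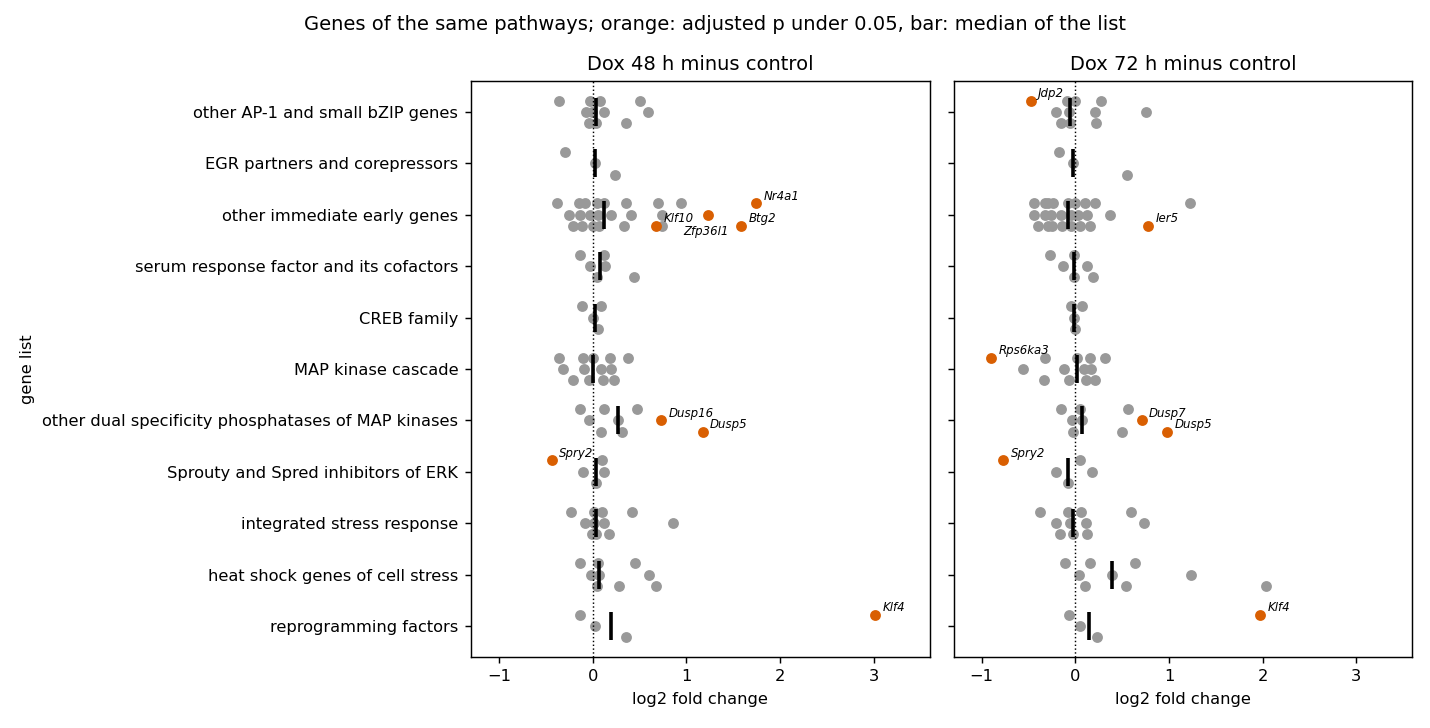
Log2 fold change (horizontal axis) of each measured gene of the pathway lists at 48 h and at 72 h against control. Orange points passed the test and are named, and black bars are list medians. The other immediate early genes had 4 called at 48 h (Nr4a1, Klf10, Zfp36l1 and Btg2) and 1 at 72 h (Ier5).

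Phosphatases of MAP kinases were the list of inhibitors with the most calls. Of 9 relatives of Dusp1, 2 were called higher and 0 lower at each time, and their median log2 fold changes were 0.27 and 0.07. Dusp5, a nuclear phosphatase of ERK, measured 5.88, 5.94 and 5.98 in control, 7.01, 6.91 and 7.40 at 48 h and 6.92, 6.90 and 6.92 at 72 h. Both Dox groups stood well above control, by 1.17 ± 0.12 at 48 h (SE, adjusted p = 0.00348) and 0.98 ± 0.12 at 72 h (adjusted p = 0.00845), and both calls held whichever array was left out. Dusp16, which acts on JNK and p38, rose at 48 h by 0.73 ± 0.13 (adjusted p = 0.0308, up to 0.12 with an array left out) and measured -0.03 against control at 72 h (adjusted p = 0.943). Its call held without Dox 72 h 1 (0.026) or Dox 72 h 3 (0.013) and ended without any 1 of the other arrays (from 0.0503 without Dox 48 h 1). Dusp7, a cytoplasmic phosphatase of ERK, rose at 72 h by 0.71 ± 0.11 (adjusted p = 0.018) and its call ended without control 1 (0.058) or control 2 (0.053). The Dusp7 call held in 4 of 6 alternatives other than leaving out an array (adjusted p up to 0.071).

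Spry2, a feedback inhibitor of receptor tyrosine kinase signaling, fell at both times and was the 1 of 5 Sprouty and Spred genes to be called. It measured 6.28, 6.35 and 6.38 in control, 5.75, 5.99 and 5.95 at 48 h and 5.64, 5.54 and 5.52 at 72 h. Its log2 fold change was -0.44 ± 0.08 at 48 h (SE, adjusted p = 0.0416) and -0.77 ± 0.08 at 72 h (adjusted p = 0.005). The call at 48 h ended whichever array was left out (adjusted p from 0.054 to 0.14), and that at 72 h held in each case.

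Of 13 measured genes of the MAP kinase cascade, 0 were called at 48 h, where 6 had an unadjusted p under 0.05, and 1 was called lower at 72 h. That gene was Rps6ka3, which encodes the kinase RSK2. It measured 8.54, 8.50 and 8.01 at 72 h, against 9.33, 9.35 and 9.07 in control, and fell by 0.90 on the log2 scale (adjusted p = 0.0234). The call ended without control 1 (0.099) or control 2 (0.084), and held in 4 of 6 alternatives other than leaving out an array. Of 11 other AP-1 and small leucine zipper genes, 0 were called at 48 h (3 with an unadjusted p under 0.05) and 1 was called lower at 72 h. Jdp2, which encodes a repressor that dimerises with JUN proteins, fell at 72 h by 0.47 on the log2 scale (adjusted p = 0.0286), and the call held with 1 array left out only without Dox 48 h 1 or Dox 48 h 2 (0.037 and 0.036; up to 0.084 otherwise).

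No gene of the SRF, CREB and EGR partner lists was called with the values as deposited. Of 6 genes of SRF and its cofactors, 0 were called at either time, and 1 had an unadjusted p under 0.05 at each. Those with the smallest p were Elk3 at 48 h (0.44, adjusted p = 0.0662) and Elk4 at 72 h (-0.27, adjusted p = 0.229). Of 4 genes of the CREB family 0 were called and 0 had an unadjusted p under 0.05; Creb1 and Crtc3 differed by -0.12 and 0.09 at 48 h (adjusted p = 0.64 and 0.786). Of 3 EGR partners 0 were called, and 2 had an unadjusted p under 0.05 at 48 h and 1 at 72 h. Nab2, a corepressor of EGR1, measured 7.36, 7.37 and 7.31 at 72 h, against 6.62, 6.78 and 6.98 in control (0.55 ± 0.12, adjusted p = 0.0582), and Nab1 differed by 0.24 at 48 h (adjusted p = 0.158). Over all alternatives the adjusted p ran from 0.041 to 0.22 for Elk3 at 48 h and from 0.035 to 0.17 for Nab2 at 72 h. The low ends were below the threshold. Elk3 stayed uncalled in 8 of 9 fits with an array left out and in 5 of 6 other alternatives. Nab2 stayed uncalled in 9 of 9 and in 4 of 6.

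Stress genes were not called either with the values as deposited. Of 11 genes of the integrated stress response, a pathway that induces Atf3, 0 were called; 2 had an unadjusted p under 0.05 at 48 h and 3 at 72 h. Sesn2, a stress-induced inhibitor of mTORC1, measured 6.06, 6.07 and 5.91 at 48 h, against 4.75, 5.51 and 5.22 in control (0.86 ± 0.18, adjusted p = 0.0628), and Eif2ak2, the kinase PKR, differed by 0.59 at 72 h (adjusted p = 0.0807). Of 9 heat shock genes 0 were called, with 2 at an unadjusted p under 0.05 at 48 h and 5 at 72 h, where their median log2 fold change was 0.39. Hspa1b, an inducible HSP70, measured 4.28, 5.68 and 6.14 at 72 h, against 3.58, 2.91 and 3.52 in control (2.03 ± 0.49, adjusted p = 0.0766), and Dnajb1, its cochaperone, differed by 0.39 (adjusted p = 0.0744). The lowest adjusted p over all alternatives was 0.036 for Sesn2, 0.049 for Eif2ak2, 0.027 for Hspa1b and 0.041 for Dnajb1. Each lies below the threshold. The highest was 0.20, 0.23, 0.21 and 0.20 in the same order. Each gene stayed uncalled in 5 of 6 alternatives other than leaving out an array. With an array left out, Eif2ak2 stayed uncalled in 9 of 9 fits and the others in 8 of 9.

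Among the reprogramming factors, Klf4 was the 1 of 4 called, by 3.02 at 48 h and 1.97 at 72 h against control on the log2 scale (adjusted p = 3.1e-05 and 0.000827). It measured 4.73, 5.13 and 4.63 in control, 7.92, 7.88 and 7.74 at 48 h and 6.80, 6.89 and 6.71 at 72 h. Every 72 h array was lower than every 48 h array, as for Nr4a1 and Klf10, and above every control array. Whether this signal came from the cassette or the endogenous gene was not analysed here. Oct4, Sox2 and Myc were not called in either comparison with control. The paper reports a gradual rise of OSKM expression after Dox by qRT-PCR, which is a different measure. Whether the probe sets read transcripts of the cassette was not analysed.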

How the data were processed

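The authors hybridised labelled RNA of sorted cells to Mouse Gene 2.0 ST arrays, and deposited log2 expression values per probe set for 9 arrays. Per the study's methods these were made with RMA in the oligo package; the processing notes of the submitters give MAS5, with no version. The log2 values were used as deposited, with no filter and no detection call, so that compression of low signals by background correction remains in every fold change. Depth has no counterpart on arrays; the 3 arrays per group limit the precision. No 2 arrays held identical values.

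Groups were taken from the sample labels. Probe sets were named from the platform annotation, with 1 probe set per gene (that with the highest mean over the 9 arrays). Groups were compared with limma 3.58.1 in R 4.3.3 (lmFit and eBayes, 1 mean per group over all 9 arrays, two-sided, Benjamini-Hochberg over 41345 probe sets, threshold 0.05), after the procedure had been tested on simulated data. The alternatives were quantile normalization, median centring, removal of probe sets with a mean below the median, a fit of the 6 arrays of both groups alone, a trended robust variance, leaving out each array, the replicate number as a block, and the mean of all probe sets of a gene, which changed nothing because each of the 10 genes had 1.

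The 10 genes, the pathway and marker lists, and the tests were chosen with earlier results of these data known. The genes named are the 10 genes, each pathway gene past the threshold or, in a list without one, the 2 with the smallest p against control, and the 5 genes most like the mean of the 10. Nr4a2 and Nr4a3 were named after their values were seen. Of the 89 listed markers 76 were measured; 6 were called higher and 0 lower at 48 h, and 7 higher and 1 lower at 72 h. Lists were described by counts and medians, without a set test. Linear signals are summed as 2 to the power of the log2 value. The RefSeq promoters were searched with exact matches.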

Additional observations from a re-analysis of the deposited data

Results flagged for a closer look

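Nr4a1, Klf10 and Klf4 differed in their response at the 2 times by the test of the difference itself, 72 h against 48 h, in limma with Benjamini-Hochberg adjustment. The log2 fold change was -1.54 for Nr4a1 (adjusted p = 0.000555), -0.72 for Klf10 (adjusted p = 0.0264) and -1.05 for Klf4 (adjusted p = 0.028), and each 72 h array was lower than each 48 h array in all 3 genes. The call of Nr4a1 held with any single array left out (adjusted p up to 0.0077). That of Klf4 held without control 2 or control 3 (0.017 and 0.041) and ended without control 1 (0.061), Dox 48 h 1, 2 or 3 (0.068, 0.14 and 0.083) or Dox 72 h 1, 2 or 3 (0.095, 0.076 and 0.11). None of the 10 immediate early and AP-1 genes had such a difference, the smallest adjusted p being that of Dusp1 (0.314).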

How the results depend on the processing

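Of 207 values of the 10 genes under alternatives other than leaving out an array, 202 kept their direction and their side of the threshold; the exceptions were Ier2 at 72 h, which turned to 0.086 under median centring, and the call of Atf3 at 48 h. Of 270 values with 1 array left out, 250 kept both, 13 changed sign and 7 lost the call of Atf3. Removing dim probe sets left Egr2 without a value. The log2 signal of the EGR genes, near the middle of all probe sets, limits what could be seen of them.

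The 1 call among the 10 genes at 48 h became 0 under median centring, in the fit of both groups alone, with the trended variance and with the replicate block, and was 0 to 1 with an array left out. Over all probe sets, the fit of both groups alone called 276 higher and 113 lower at 48 h (463 and 199 as deposited), 184 and 186 at 72 h (479 and 549), and 17 lower at 72 h than at 48 h (86). With an array left out these were 220 to 496 and 69 to 220 at 48 h, 131 to 375 and 138 to 476 at 72 h, and 0 to 3 higher and 13 to 60 lower between the times. Between the times, 3 probe sets were higher as deposited, 5 after quantile normalization, 13 (and 164 lower) without dim probe sets and 6 with the trended variance. Median centring gave 633 higher and 398 lower at 72 h.

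The 7 pathway genes called higher at 48 h became 11 without dim probe sets (4 to 8 with an array left out), and the 1 called lower became 0 in the fit of both groups alone and with the trended variance, and 0 whichever array was left out. At 72 h the 4 higher became 9 without dim probe sets and 2 in the fit of both groups alone (2 to 6 with an array left out), and the 3 lower became 1 there (1 to 3). The 3 lower between the times became 6 without dim probe sets (1 to 2 with an array left out). Some single calls also ended in part of the 6 alternatives other than leaving out an array. Those at 48 h held in 4 for Btg2, 5 for Dusp16 and 3 for Spry2. Those at 72 h held in 4 for Ier5, Dusp7 and Rps6ka3, and in 3 for Jdp2. Between the times, that of Klf10 held in 4 and that of Klf4 in 5. Of the markers, 1 rather than 0 was lower at 48 h after quantile normalization, without dim probe sets and with the trended variance (0 to 1 with an array left out). At 72 h, 2 rather than 1 were lower without dim probe sets and 0 in the fit of both groups alone (0 to 2), and the 1 higher between the times became 0 there (0 to 1). The causes were not tested, apart from the smaller number of tests without dim probe sets.

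Signs also changed for Klf10 at 72 h under median centring (0.044) and for Dusp16 at 72 h under quantile normalization (0.063) and median centring (0.064). With an array left out, Fosb ranged from -0.16 to 0.62 at 48 h and from -0.74 to 0.044 at 72 h, Egr2 from -0.044 to 0.098 at 48 h and from -0.029 to 0.11 at 72 h, Jun at 72 h from -0.10 to 0.66, Junb at 72 h from -0.0080 to 0.11 and Ier2 at 72 h from -0.16 to 0.15. Klf10 at 72 h ranged from -0.11 to 0.036, Zfp36l1 from -0.010 to 0.29 and Dusp16 from -0.14 to 0.10, and between the times Fos ranged from -0.69 to 0.14 and Egr1 from -0.58 to 0.24.

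Deviations of arrays with the same replicate number correlated from -0.30 to 0.21. Between 72 h and control the values were 0.13, 0.066 and 0.21. From these correlations alone it cannot be decided whether the numbers pair the arrays. With the replicate number as a block, the whole-array calls came to 254 (higher) and 73 (lower) for 48 h, 133 and 125 for 72 h, and 0 and 11 between the times. The call of Atf3 at 48 h ended with this block (adjusted p = 0.128, the largest of the alternatives other than leaving out an array). In this fit the pathway genes called lower at 48 h became 0, those higher and lower at 72 h 2 and 1, and those lower between the times 1; the markers became 1 lower at 48 h, 4 rather than 7 higher at 72 h and 0 higher between the times.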
